A study of Mus musculus with 2 samples.

Results

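Genomic imprinting is the expression of a gene mainly or only from the copy inherited from 1 parent. A set of 35 imprinted mouse genes was followed here on 2 one-colour Agilent expression arrays. The genes were taken from a list that was chosen with earlier results of these data known. Their probes were found by the gene name printed in the array design or by an older symbol (Meg3 is named Gtl2 there). All 35 genes had a probe, 72 probes in all, among 41174 gene probes for 19505 named genes. Of the 35 genes, 34 were well above background on both arrays, and 14967 genes of the whole array were well above background on at least 1 array.

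Both RNA samples came from R1, a mouse embryonic stem (ES) cell line. The day 0 array holds undifferentiated ES cells, and the day 6 array holds embryoid body cells, floating aggregates that the labels describe as neural precursors. The ES cells were kept on growth-arrested fibroblast feeders with 15% serum and LIF at 1000 U/ml. Differentiation followed a direct neural protocol, and its medium is not named in the labels. Each group was 1 array of 1 line, so differences have no replicate check, no test was possible, and medium, feeders and differentiation cannot be told apart. Expression arrays measure total RNA of a gene and do not tell the parental copies apart.

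Imprinted genes lie in clusters, each controlled by a region of DNA that carries methylation from the egg or the sperm. Protein-coding genes expressed from the paternal copy often favour fetal growth, and several maternally expressed ones restrain it. Maternally expressed long noncoding RNAs such as H19 and Meg3 share clusters with paternally expressed genes. Many imprinted genes are strongly expressed in the embryo and the developing brain. The parental copy in use can depend on the tissue: Grb10 is maternal in most tissues and paternal in neurons, and Ube3a is expressed from both copies in most tissues and from the maternal one in neurons.

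Pluripotency markers were lower on day 6, and most neural markers were higher. All 9 measured pluripotency markers of 10 listed, such as Pou5f1 and Nanog, were lower on day 6 by at least 4-fold. Of 12 neural markers 10, such as Fabp7 and Pax6, were at least 2-fold higher, and Nes and Stmn2 were within 2-fold. Feeder fibroblast markers, measured in 19 of 20, had a summed intensity before scaling of 243228 units on day 0 and 92872 on day 6. Acta2 alone gave 93000 and 49879 of these, so the sum rests largely on bright probes and does not measure feeder content. Of the 19, 9 were at least 2-fold lower and 2 (Lum and Pdgfra) higher. The fibroblast markers S100a4, Lox and Thy1 were among those lower, Lox was dim on day 6, and Col3a1, Fbn1 and Postn were within 2-fold. Imprinted genes can be expressed in fibroblasts, and the part of feeder RNA in any difference below was not tested. Of 6 measured trophoblast markers (7 listed) 5 were at least 4-fold lower, and of 8 measured mesoderm and endoderm markers (11 listed) 2 were higher and 2 lower. In such bulk RNA, fewer cells of a type and less RNA per cell cannot be told apart.

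The 4 long noncoding RNAs of the list are shown first, because they are RNA products with no protein and sit in 2 clusters beside protein-coding members. Each was read by 60-base probes, printed as in the deposited files (5′ to 3′, lower case throughout).
H19, accession BC025150: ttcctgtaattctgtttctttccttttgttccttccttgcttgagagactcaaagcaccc
H19, accession AK003142: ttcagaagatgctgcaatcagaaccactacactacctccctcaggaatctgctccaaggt
Meg3, accession XM_981786: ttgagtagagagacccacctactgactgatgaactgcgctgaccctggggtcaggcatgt
Meg3, accession NM_144513, the brightest of 3: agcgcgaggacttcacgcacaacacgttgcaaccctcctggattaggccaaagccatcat
Rian, accession AK017440: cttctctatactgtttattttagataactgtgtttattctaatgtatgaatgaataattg
Mirg, accession AK077315: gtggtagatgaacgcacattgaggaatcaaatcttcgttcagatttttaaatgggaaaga

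Of the imprinted genes past 2-fold, 77.3% were higher on day 6, beside 47.0% of all genes past 2-fold. In all, 17 of the 34 measured imprinted genes (50%) were at least 2-fold higher, where 17.8% of all genes were. Another 5 (14.7%) were at least 2-fold lower, where 20.1% of all genes were, and 12 were within 2-fold. At 4-fold, 9 were higher and 1 lower, against 7.35% and 8.35% of all genes. The list was chosen with earlier results of these data known, so these shares need not hold for imprinted genes in general. Of 32 measured imprinted genes outside it, 18.8% were at least 2-fold higher and 25.0% lower. The median log2 difference, day 6 minus day 0, was 1.16 for the 34 genes and -0.09 for all genes. These differences are of log2 intensities scaled to the 75th percentile of each array, each with the scanner software's error as an SD. That SD was 0.20 log2 units at the median and does not hold the variation between cultures. For bright probes it comes almost wholly from a multiplicative error of 0.1 preset in the software, and is not a spread measured here. Gaps given below as multiples of the combined software SD rest on the same setting. Each gene is given by its brightest probe.

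Paternally expressed genes moved in both directions, with most of them higher. Of 18 measured, 10 (55.6%) were higher and 4 (22.2%) lower by at least 2-fold and 4 were within it. Their median log2 difference was 1.81. Among all genes 17.8% were higher and 20.1% lower, so the paternal share of lower genes was near that of all genes. Of 9 measured maternally expressed genes, 3 (33.3%) were at least 2-fold higher and 1 (11.1%) lower, with a median of 0.29. Of 7 genes whose expressed copy depends on tissue or isoform, 4 (57.1%) were at least 2-fold higher and 0 lower. The median of these 7 was 1.62. The classes overlapped widely, from -1.72 to 3.46 for paternal and from -3.24 to 4.91 for maternal genes, and whether they differ was not tested.

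**Figure D1:**
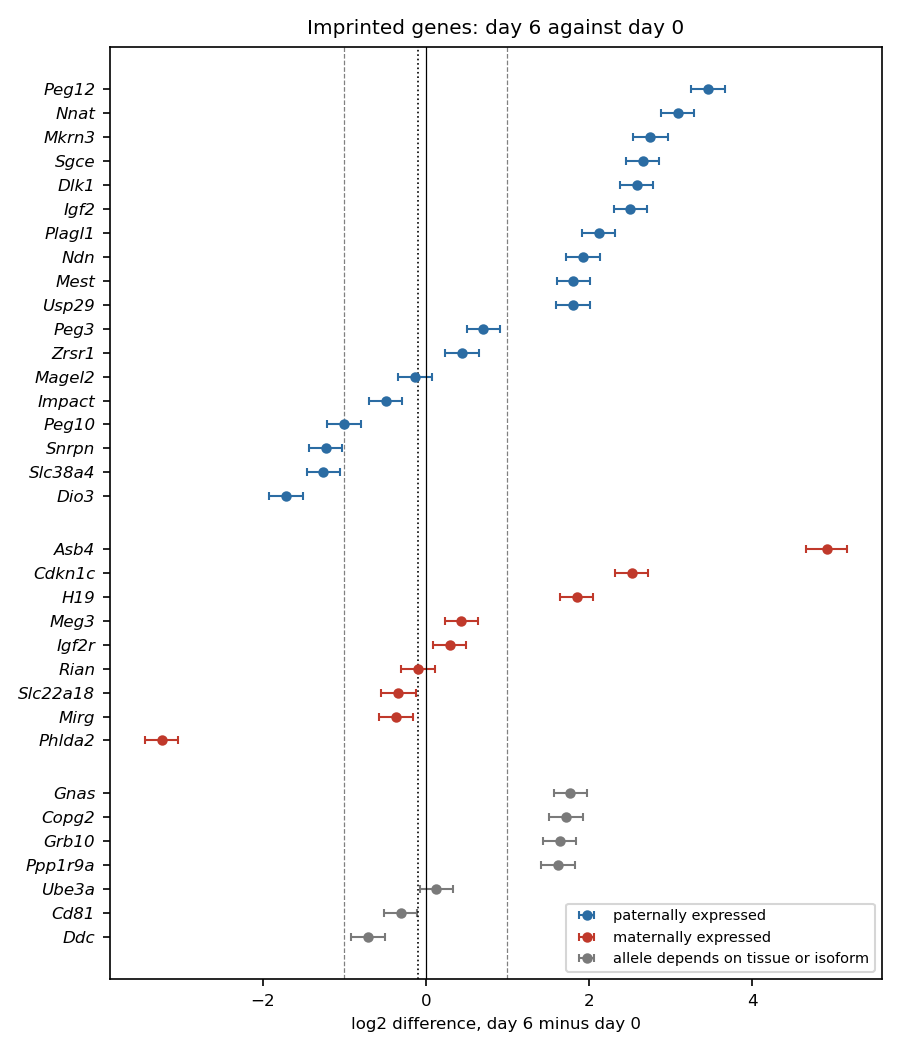
Log2 difference, day 6 minus day 0, of the 34 measured imprinted genes in 3 classes, with bars of 1 software SD. Dashed lines mark 2-fold, and the dotted line marks the median of all genes (-0.09). Paternally expressed genes run from Peg12 at 3.46 to Dio3 at -1.72, and the maternally expressed genes Asb4 (4.91) and Phlda2 (-3.24) lie farthest from 0.

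Both listed genes of the Igf2 and H19 cluster were higher on day 6. Their neighbour Ins2, taken from a list of other imprinted genes, had 484 and 913 units and was within 2-fold (0.69 ± 0.22). Igf2, a paternally expressed fetal growth factor, gave 11381 intensity units on the day 0 array and 75410 on the day 6 array, 5.68-fold higher (log2 difference 2.50 ± 0.20, software SD). This probe, for NM_010514, lies at chr7:139078075-139078135 (mm7) on the minus strand. It was spotted 10 times on each array. The 8 spots used on day 0 ran from 11080 to 11902 with a median of 11297, and the 8 used on day 6 ran from 72836 to 77983 with a median of 75786. The spots of the 2 arrays did not overlap, and their SD was 0.0403 and 0.0395 log2 units. Spots of the same probe on the same array are not replicates of a group. Their spread does not hold the variation between cultures. A second Igf2 probe gave 2.61.

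H19, the maternally expressed noncoding RNA of the same cluster, had intensities of 1747 and 7334 with the first of its sequences above (chr7:139003144-139003203, mm7). It was 3.60-fold higher (1.85 ± 0.20). The second sequence gave intensities of 1050 and 4381 and a log2 difference of 1.84. Both probes thus gave nearly the same difference. The log2 difference of Igf2 exceeded that of H19 by 0.66, 2.28 times the combined software SD of 0.29. Igf2r, a maternally expressed receptor that takes up IGF2 for breakdown, lies elsewhere in the genome and had intensities of 15916 and 22777 (0.29 ± 0.20, chromosome 17). The antisense RNA of its cluster, Airn, read by probes designed to its own clones, was 2.84-fold higher from 325 to 1080 units (1.51 ± 0.23).

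The cluster around Kcnq1 held genes past 4-fold in both directions. Cdkn1c (p57), a maternally expressed inhibitor of cyclin-dependent kinases, had intensities of 26208 and 175532 and was 5.74-fold higher (2.52 ± 0.20). Its probe lies at chr7:139886128-139886187 (mm7). Phlda2, a maternally expressed gene that restrains placental growth, had intensities of 62345 and 7716 and was 9.43-fold lower (-3.24 ± 0.20), the lowest difference in the list. The log2 differences of these 2 maternally expressed neighbours thus lay 5.76 apart. A second Phlda2 probe gave -3.26, but it shares 50 of its 60 bases with the first.

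The other members of that cluster were within 2-fold. Slc22a18, a membrane transporter, gave 600 and 555 units with its brighter probe (-0.34 ± 0.21) and a log2 difference of 0.28 with the other. Cd81, a tetraspanin imprinted mainly in placenta, gave 179325 and 169027 (-0.31 ± 0.20). Of 6 further measured genes there, taken from a list of other imprinted genes, Kcnq1 (0.94), the noncoding RNA Kcnq1ot1 (0.69), Osbpl5 (0.64), Nap1l4 (0.22) and Tssc4 (0.01) were within 2-fold. Ascl2, a trophoblast factor, was dim on both days (199 units on day 0 and no better than background on day 6) and at least 2.20-fold lower.

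**Figure D2:**
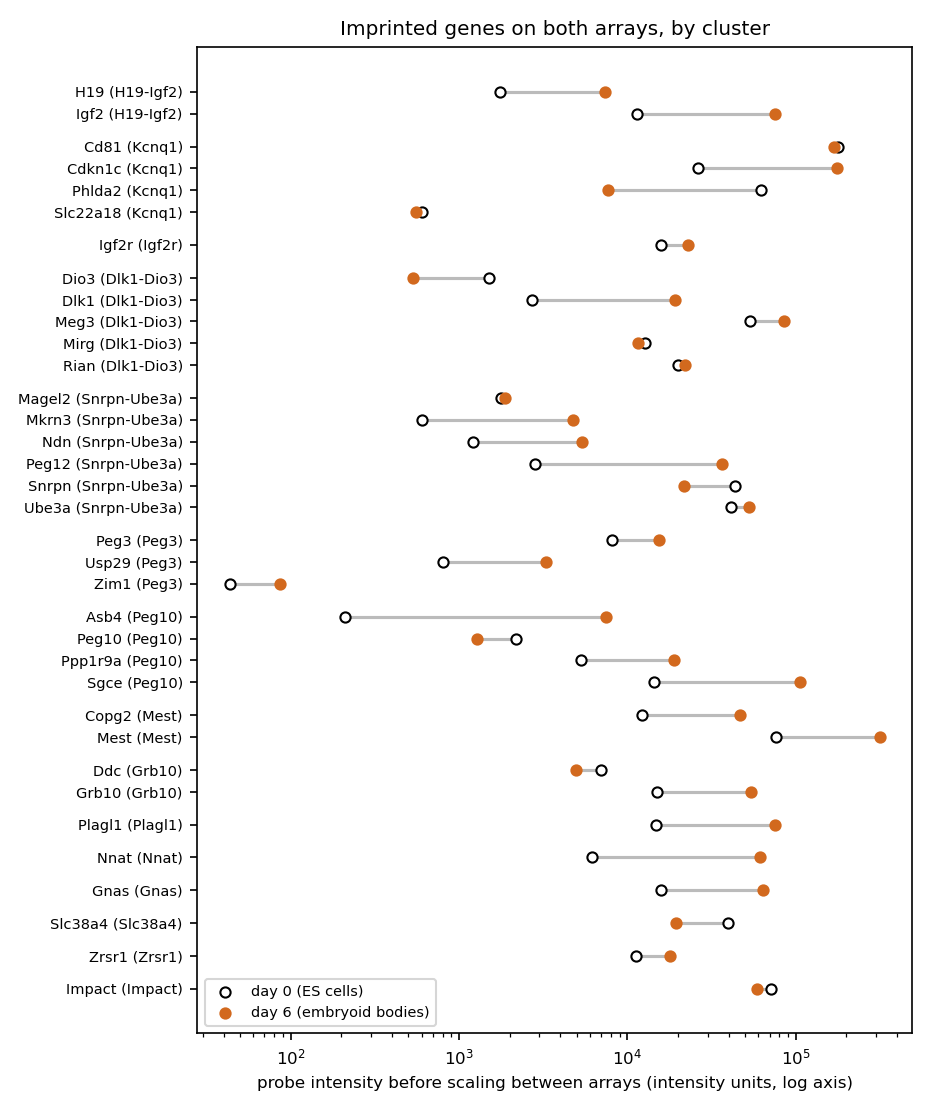
Intensity of each imprinted gene's brightest probe on day 0 (open circles) and day 6 (filled circles), on a log axis and before scaling between arrays, grouped by cluster. In the Kcnq1 cluster Cdkn1c runs from 26208 to 175532 and Phlda2 from 62345 to 7716. Zim1, at 43.6 and 86.3, was at background on both arrays. Intensities of different probes cannot be set against each other.

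In the cluster from Dlk1 to Dio3, the protein-coding genes differed and the noncoding RNAs hardly did. Dlk1, a paternally expressed membrane protein of the Delta family, had intensities of 2731 and 19117 and was higher on day 6 (2.58 ± 0.20, chr12:106981689-106981748, mm7). Its second probe gave 2.24. Dio3, a deiodinase that inactivates thyroid hormone and is also paternally expressed, had 1499 and 533 units and was 3.28-fold lower (-1.72 ± 0.21). The log2 differences of these 2 ends of the cluster lay 4.30 apart.

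Between them lie the maternally expressed noncoding RNAs whose probes are printed above. Meg3 had intensities of 53849 and 84976 with its XM_981786 probe (0.43 ± 0.20, chr12:107092697-107092756, mm7). Its NM_144513 probe shown above gave 20860 and 33003 units and a log2 difference of 0.44. Over its 5 probes the difference ran from 0.02 to 0.44, so none reached 2-fold. Rian, a host of small nucleolar RNAs and microRNAs, had 20096 and 21931 units (-0.10 ± 0.20, chr12:107180614-107180673), and a dimmer probe gave -0.11. Mirg, a microRNA host, had 12683 and 11497 units (-0.36 ± 0.20, chr12:107261346-107261405). The log2 difference of Dlk1 exceeded that of Meg3 by 2.15, 7.44 times the combined software SD.

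The central cluster of chromosome 7, known in human as the Prader-Willi and Angelman region, held genes of every kind of behaviour. Peg12 (Frat3), an intronless paternally expressed gene, had intensities of 2840 and 36465 and was 11-fold higher (3.46 ± 0.20, chr7:58211942-58212001, mm7). Mkrn3, a ring finger protein gene known for restraining the onset of puberty, had 605 and 4759 units and was 6.74-fold higher (2.75 ± 0.21). Ndn (necdin), a MAGE family protein of postmitotic neurons, had 1213 and 5381 units and was 3.80-fold higher (1.93 ± 0.21). All 3 are paternally expressed.

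Snrpn, a paternally expressed splicing protein gene whose promoter lies at the control region of this cluster, went the other way. It had intensities of 43551 and 21692 and was 2.34-fold lower (-1.23 ± 0.20, chr7:55735092-55735151, mm7). The difference between the log2 differences of Snrpn and Peg12 was -4.69. Its second probe, for the same accession, gave -1.19. The probes cover 43 shared positions and have different bases at 2 of them. Snrpn has a close relative, Snrpb, whose own probe gave 61835 and 60980 units (-0.24 ± 0.20), and hybridisation between the 2 was not tested. Magel2, another MAGE family gene, had 1767 and 1885 units (-0.13 ± 0.21). Ube3a, a ubiquitin ligase expressed from the maternal copy in neurons, had 41423 and 52934 units (0.13 ± 0.20), and its 3 probes ran from -0.21 to 0.13.

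On chromosome 6, Peg10 and Sgce stand head to head in the RefSeq annotation (GRCm38.p6), with their starts facing each other, and both are paternally expressed. Sgce (epsilon-sarcoglycan) had intensities of 14430 and 106327 and was 6.31-fold higher (2.66 ± 0.20, chr6:4627343-4627402, mm7), with 2.97 from a second probe. Peg10, a gene derived from a retrotransposon and needed in placenta, had 2192 and 1278 units (chr6:4712753-4712812). It was lower by 2-fold (-1.0 ± 0.21), at the limit of that class. The log2 difference of Peg10 minus that of Sgce was -3.66, 12.6 times the combined software SD in size, with Peg10 read by 1 probe.

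Farther along the same cluster, Asb4 showed the largest difference of all members. This maternally expressed gene of an ankyrin and SOCS box protein had 211 units on day 0 and 7422 on day 6, 30.1-fold higher (4.91 ± 0.25, chr6:5385772-5385831, mm7). Its second probe was well above background on day 6 only, at 1070 units, and at least 8.96-fold higher. Ppp1r9a (neurabin), an actin-binding protein of neurons, had 5306 and 19033 units with its brightest probe (1.62 ± 0.20, 3.07-fold higher). Other probes of Ppp1r9a gave 0.92 and 0.70, and 2 that were well above background on day 6 only gave bounds of 1.23-fold and 1.22-fold.

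A second pair with facing starts, Peg3 and Usp29 on chromosome 7, differed less. Peg3, a zinc finger protein gene, had intensities of 8136 and 15458 (0.70 ± 0.20), and another probe gave 0.83. Usp29, a ubiquitin protease gene, had 807 and 3293 units and was 3.50-fold higher (1.81 ± 0.21). A second Usp29 probe was well above background on day 6 only (1272 units) and at least 10.7-fold higher. The log2 difference of Peg3 minus that of Usp29 was -1.10, 3.79 times the combined software SD in size. Zim1, the maternally expressed zinc finger gene next to them, was the 1 member at background on both arrays (43.6 and 86.3 units).

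The stretch between Peg3 and Usp29 is printed because both genes start from it. It lies between the annotated ends of the 2 genes (GRCm38.p6, chr7:6730463-6730558, plus strand), is 96 bases long and holds 3 CG dinucleotides, in capitals.
Peg3 to Usp29: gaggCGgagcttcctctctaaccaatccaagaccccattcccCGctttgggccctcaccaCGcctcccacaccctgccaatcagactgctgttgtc

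Mest and Copg2 share a cluster on chromosome 6, where the ends of the 2 genes overlap on opposite strands (RefSeq, GRCm38.p6). Mest (Peg1), a paternally expressed member of the hydrolase fold family, had intensities of 76885 and 314541 and was 3.50-fold higher (1.81 ± 0.20, chr6:30680425-30680484, mm7). Copg2, a coat protein gene of transport vesicles with preference for the maternal copy in brain, had 12203 and 46886 units and was 3.29-fold higher (1.72 ± 0.20). Unlike in the pairs above, the log2 differences of these 2 genes lay only 0.09 apart, 0.31 times the combined software SD. The brightest Copg2 probe (chr6:30680660-30680719) lies close to the Mest probe, on the other strand. A Copg2 probe far from it (chr6:30820902-30820961) gave 542 and 2502 units and a log2 difference of 1.98, so the higher level of Copg2 was also seen away from Mest.

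Plagl1 and Grb10, on chromosomes 10 and 11, were both higher. Plagl1 (Zac1), a paternally expressed zinc finger factor that regulates other imprinted genes, had 14829 and 75254 units and was 4.35-fold higher (2.12 ± 0.20, chr10:12831831-12831890, mm7), with 2.34 from a dimmer probe. Grb10, an adaptor that restrains insulin and IGF signalling, had 15001 and 54519 units and was 3.11-fold higher (1.64 ± 0.20, chr11:11882970-11883029). Its 3 probes ran from 1.35 to 1.64, all above 2-fold. Its neighbour Ddc, the decarboxylase of dopamine and serotonin synthesis, gave opposite signs with 2 probes, 6968 and 4980 units (-0.71 ± 0.20) against 394 and 779 (0.76 ± 0.22). The direction of Ddc is therefore not settled by these probes.

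Nnat (neuronatin), a paternally expressed membrane protein of the developing brain, had intensities of 6204 and 61508 and was 8.49-fold higher (3.09 ± 0.20, chr2:157303132-157303191, mm7). Nnat lies within the gene Blcap, which had 22089 and 43905 units (0.77 ± 0.20). The log2 difference of Blcap was 2.32 less than that of its guest. Zrsr1, a paternally expressed splicing factor relative, lies within Commd1. Here guest and host had similar log2 differences, with 11303 and 17958 units for Zrsr1 (0.44 ± 0.20) and 35234 and 48006 for Commd1 (0.22 ± 0.20). Impact, a regulator of translation and paternally expressed, had 71270 and 59107 units (-0.49 ± 0.20). Slc38a4, an amino acid transporter of placenta and liver, had 39800 and 19480 units and was 2.39-fold lower (-1.25 ± 0.20), and its second probe gave -2.15.

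Gnas has several promoters, and its 8 probes separate some of the products. The brightest probe (S49980) gave 15941 and 63558 units, 3.42-fold higher (1.77 ± 0.20), and one near it gave 1.82. Both lie downstream of every other Gnas probe that has a position. Whether they read only the main product, the stimulatory G protein alpha subunit, was not tested. A probe described in the files as a noncoding RNA that overlaps exon 1A had 595 and 3697 units (2.41 ± 0.21). The probe for the paternally expressed extra-large form, XL alpha s, was well above background on day 6 only, at 324 units, and at least 2.71-fold higher. A probe for BC062654 was likewise at least 3.22-fold higher. Every Gnas probe that could be measured was thus higher on day 6. Another 3, including the probe for NM_022000, were at background on both.

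**Figure D3:**
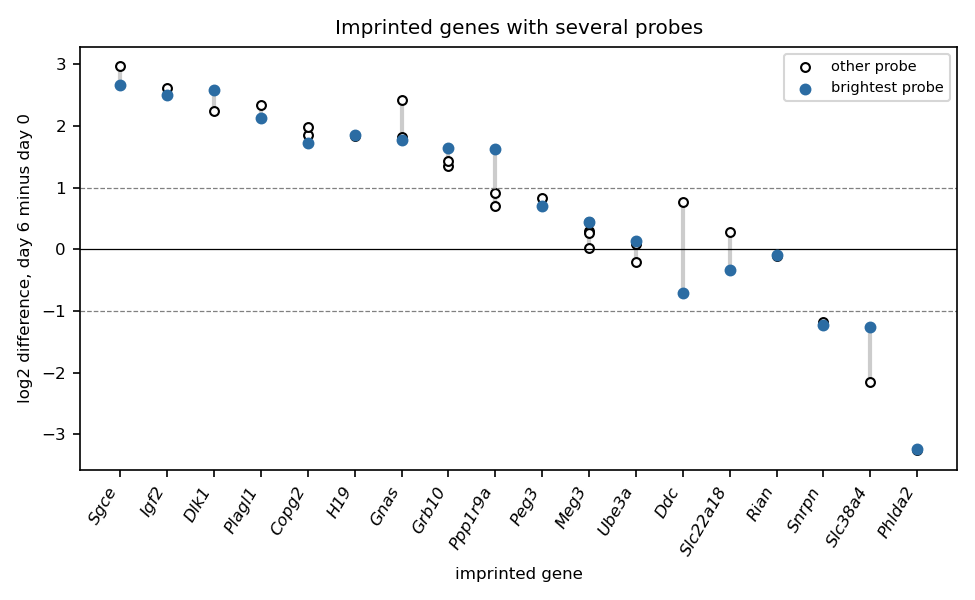
Log2 difference, day 6 minus day 0, of every probe detected on both days, for the 18 imprinted genes that have at least 2 such probes, with the brightest probe filled. Dashed lines mark 2-fold. In 15 genes all probes have the same sign, and Ddc spreads widest, from -0.71 to 0.76.

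Probes of a gene mostly lay close together. Of 18 members read on both days by at least 2 probes, 13 had probes within 0.5 log2 units of each other, with a median range of 0.30. Phlda2, Snrpn and Copg2 each have 2 such probes that overlap, by 50, 43 and 37 positions, and these are not separate checks. In 3 genes (Ddc, Slc22a18 and Ube3a) the probes had both signs, and none of the 3 was past 2-fold with any such probe. Usp29 and Asb4, each with 1 probe read on both days and 1 on day 6 only, are not among the 18. Their probes gave log2 differences of 1.81 and at least 3.41 for Usp29, and 4.91 and at least 3.16 for Asb4. Another 15 members, Zim1 among them, had 1 probe, so their values rest on a single sequence. These include Peg12, Nnat, Mkrn3, Cdkn1c and Mest among the higher genes, and Dio3 and Peg10 among the lower ones.

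Promoters of the members were searched for TGCCGC on either strand, the core of the sequence that the imprint-protecting protein ZFP57 is known to bind when methylated. RefSeq windows (GRCm38.p6) of 250 bases before to 50 after a start were at hand for 30 of the 35 genes. Those of Cdkn1c, H19, Impact, Peg10 and Sgce were not used here. The motif stood in 10 of 48 windows of members (20.8%) and in 11.6% of all 32851 windows. By gene these were 9 of 30 (30.0%) and 13.1% of 27025, as a description only, since genes have unequal numbers of windows. The motif itself holds a CG, and windows of members were richer in CG dinucleotides (median 11.5) than all windows (median 7). The shares were not compared at equal CG content. Whether genes with the motif differed more between the days than genes without it was not tested. Plagl1 and Mest are printed as examples, with the 250 bases before the start and the motif in capitals. There it reads GCGGCA because it lies on the minus strand.
Plagl1, chr10:13090582-13090831, plus strand: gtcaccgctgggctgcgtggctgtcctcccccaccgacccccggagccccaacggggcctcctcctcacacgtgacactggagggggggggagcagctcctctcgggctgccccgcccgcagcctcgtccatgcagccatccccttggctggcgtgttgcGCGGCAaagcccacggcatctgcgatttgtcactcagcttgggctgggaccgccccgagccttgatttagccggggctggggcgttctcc
Mest, chr6:30737800-30738049, plus strand: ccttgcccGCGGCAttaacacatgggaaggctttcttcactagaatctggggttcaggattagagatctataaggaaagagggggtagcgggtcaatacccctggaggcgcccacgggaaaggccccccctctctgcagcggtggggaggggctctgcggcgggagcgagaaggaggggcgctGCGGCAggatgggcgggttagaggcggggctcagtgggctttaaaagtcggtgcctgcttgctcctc

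Genes for proteins that set and keep imprints were mostly within 2-fold or lower on day 6. Of 21 measured (22 listed), 11 were within 2-fold, 9 (42.9%) at least 2-fold lower, where 20.1% of all genes were, and 1 higher, with a median of -0.70. Dnmt3l, the cofactor that establishes imprints in germ cells, was 141-fold lower, Dppa3 (Stella), which protects imprints in the zygote, 25.7-fold lower, and Dnmt3b 9.54-fold lower. The list also holds Zfp42 (Rex1), a pluripotency marker, which was 72.1-fold lower. ZFP57's own gene had 2460 and 843 units (-1.77 ± 0.21), and its partner Trim28 had 151160 and 52381 (-1.75 ± 0.20). Dnmt1, which copies methylation at replication, had 12283 and 12583 units (-0.19 ± 0.20), and its recruiter Uhrf1 gave -0.41. Tet3, a methylcytosine oxidase, was 5.19-fold higher, while Tet1 was 7.29-fold lower.

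Imprinted genes outside the list were spread over both directions. Of 32 measured (42 listed), 6 were at least 2-fold higher and 8 lower, shares of 18.8% and 25.0% beside 17.8% and 20.1% of all genes, with a median of 0.22. Nap1l5, a paternally expressed gene within another gene, was 14.3-fold higher (3.84 ± 0.25), Gatm 2.29-fold and Inpp5f 2.16-fold higher. Kcnk9 and Th, seen on day 6 only, were at least 12.3-fold and 3.77-fold higher. Sfmbt2, a Polycomb-related gene imprinted in extraembryonic tissue, was 21.4-fold lower (-4.42 ± 0.21). Calcr, next to the Peg10 cluster, was 20.1-fold lower from 2035 to 118 units, and Atp10a and Cobl were 3.82-fold and 3.30-fold lower. Rasgrf1, Tfpi2, Gpr1 and Ascl2, seen on day 0 only, were lower by at least 11-fold, 10.9-fold, 2.83-fold and 2.20-fold.

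Partners of the imprinted growth regulators were mostly higher. Of 15 measured (16 listed), 9 were at least 2-fold higher and 1 lower, with a median of 1.08. The shares of all genes were 17.8% higher and 20.1% lower, with a median of -0.09. The signalling receptors Igf1r and Insr were 2.33-fold (1.22 ± 0.20) and 6.25-fold (2.64 ± 0.21) higher, beside Igf2r, which was within 2-fold. The adaptor Irs1 was 4.65-fold and Igfbp4 3.83-fold higher. Igfbp5, an IGF binding protein, was 438-fold higher and Igfbp3, another, 26.7-fold lower. The Notch receptors, on which DLK1 is known to act, gave 1.08 for Notch1 and 1.27 for Notch2.

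**Figure D4:**
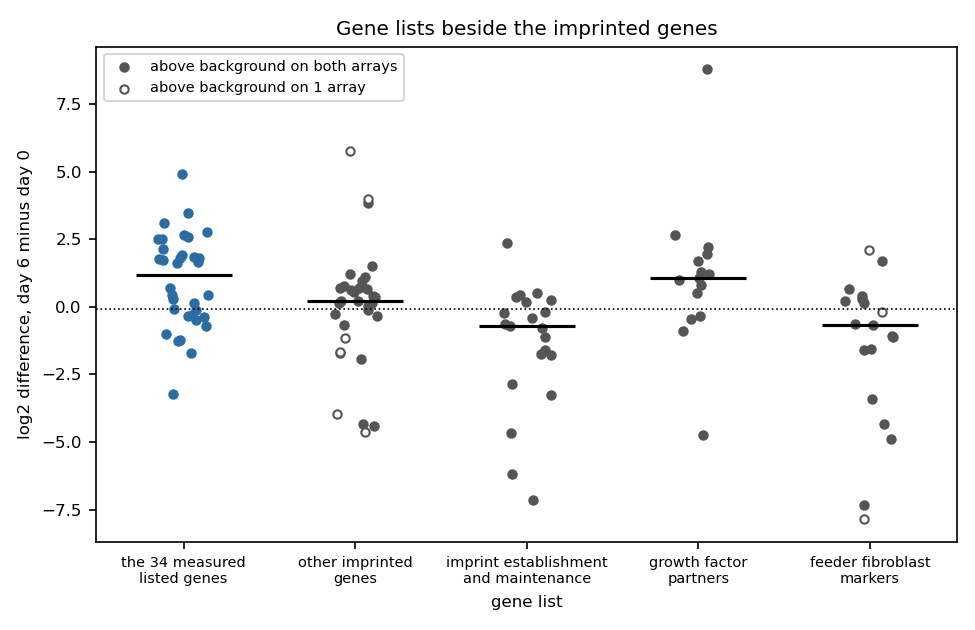
Log2 difference, day 6 minus day 0, of single genes in the imprinted list and 4 lists beside it, with horizontal bars at the list medians (1.16, 0.22, -0.70, 1.08 and -0.66 from left to right) and a dotted line at the median of all genes. Open circles were well above background on 1 array only and are plotted at their measured difference, which is not a reliable size.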

How the data were processed

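The authors deposited Feature Extraction scanner files whose intensity values, per the file headers, were background-subtracted and detrended within each array (version 9.5.3.1, design 014868, build mm7). They also deposited a log2 value table with equal distributions on both arrays, used as an alternative, whose steps no header or label states. Its day 6 minus day 0 differences correlated with those computed here at 0.995 across 23731 probes, which are not independent.

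Control and outlier spots were left out, spots of a probe averaged, and log2 intensities scaled by each array's 75th percentile (3758 and 4388 units). Probes well above background, by the software's mark, on at least 1 array were used (61.3% and 65.3% of probes passed on day 0 and day 6), and a gene took its brightest probe. Genes other than the members were named through RefSeq (GRCm38.p6, names and neighbours only). Where 1 array was dim, the fold is a lower bound against the lowest signal well above background (102 and 85.2 units) or the probe's own signal. Counts use 2-fold. With 1 array per group the number of arrays limits the precision. Both arrays share a slide, per the file headers, and group cannot be told apart from position on it. Calculations used Python 3.11.15, with normexp from limma 3.58.1, and were tested on simulated data.

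The text names all 35 members and, from the lists of other imprinted genes, imprint proteins and growth factor partners, up to 4 genes with the largest differences in each direction among genes well above background on both arrays. It also gives further genes, among them those seen on 1 array, marker examples, partners and neighbours, chosen after their values were seen. Members, classes and lists were chosen with earlier results of these data known.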

Additional observations from a re-analysis of the deposited data

How the results depend on the processing

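The counts past 2-fold, of imprinted genes and of all genes, stayed within 1.5 times their values and the medians of both parental classes kept their sign in the 11 alternatives (background correction, scaling, filter, bound, probe choice, naming, outlier spots and the authors' table). The 17 higher members were the same in each, except that Ppp1r9a dropped out when probes were averaged (16). Peg10 was at the limit and came under 2-fold in 4 alternatives (-0.92 at the least), and Snrpn in 1, the authors' table (-0.99). Of 374 member values, 24 moved by more than their software error and 0 of the members past 2-fold changed sign. The filter, bound and naming alternatives gave every measured member the same value as the main setting. Those values are in the 374 but say nothing about how stable the members are. Leaving out 1 member at a time left the paternal median at 1.81 and put the maternal median between 0.10 and 0.36. Such a median can only move to values at the middle of its class, so this does not measure the spread of the class. Ddc was at 0.03 when probes were averaged. Among all genes past 2-fold, 47.0% were higher, from 41.7% with median scaling to 51.1% with the percentile taken over probes well above background on both arrays, where higher outnumbered lower genes. Median scaling shifted the median of all genes to -0.21. No paired analysis was possible because each group has 1 array, and no replicate could be left out. Signal over background limits Zim1 and the 12 probes dim on at least 1 array.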
